A study of Apis mellifera with 3 samples.

Results

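Transcript levels in the library of spring bees were set against those in the library of winter bees, sequence by sequence. The comparison covered every transcript sequence that reached 10 RPKM, the reads per kilobase of sequence scaled to the mapped reads of the library, in at least 1 of the 2 libraries. This was the case for 12038 of the 21076 sequences read in either library, out of 21441 sequences in the whole series of 3 libraries. Each sequence is named by its entry in the files (TC13695, for example) and by its best protein match. A name therefore says what a sequence resembles, and several sequences can belong to 1 gene.

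Both pools were full-sister worker honeybees of the strain Apis mellifera carnica Pollmann, bred from queens inseminated with the sperm of an isolated drone. The spring pool held 30 bees labelled 6 days after emergence, and the winter pool held 30 bees labelled 3 days after emergence. The labels give hypopharyngeal glands as the tissue of both, while the design text of the series speaks of pooled heads. Each pool gave 1 library, so n = 1 on each side, no difference has a replicate check, and season and labelled age differed together and cannot be told apart. Folds are ratios of reads per library total with exact 95% intervals, whereas calls past 2-fold and log2 ratios use RPKM + 1. The intervals compare 2 libraries, not 2 seasons, and cover counting error only, because PCR copies of a molecule were not told apart.

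The hypopharyngeal glands are paired head glands whose cells secrete the proteins of royal jelly in nursing workers and sugar-processing enzymes in workers that handle nectar. Secreted proteins are made on ribosomes at the endoplasmic reticulum (ER), enter it through the Sec61 channel, are folded and given sugar chains inside it, and leave in coated vesicles. Long-lived winter workers are known for large stores of protein and fat in the fat body, with vitellogenin, an egg yolk protein that workers also make, among them.

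The sequences compared held 3217969 uniquely mapped reads in the spring library and 3749711 in the winter library, which were 97.9% of all spring reads and 97.4% of all winter reads. For a 1 kb sequence, a floor of 3 reads equals 0.912 RPKM in spring and 0.780 RPKM in winter. Royal jelly protein sequences took 21.3% of the spring reads and 7.09% of the winter reads, which left 78.7% of the spring reads and 92.9% of the winter reads for all other sequences. The median log2 ratio of all 12038 sequences, on the scale of RPKM + 1, was -0.26, close to the log2 ratio of those 2 remainders (-0.24). Median-of-ratios scaling, which sets the median ratio to 1, raised all ratios by 0.26, and totals without royal jelly and the most abundant sequences raised them by 0.21. List medians are therefore read against -0.26. Lists were matched by protein names, however, and 1248 of the 1251 sequences in them are described ones. The median of all described sequences was -0.16, so lying above -0.26 sets a list apart from them less than from all sequences. Folds of single sequences are not adjusted for this shift, so a sequence slightly lower in spring can lie at or above that median.

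Of the 12038 sequences, 258 (2.14%) passed 2-fold higher in spring and 573 (4.76%) passed 2-fold lower. Under median-of-ratios scaling the split over these sequences turned round, with 432 (3.59%) higher and 283 (2.35%) lower. The counts of every list and term below are to be read against these shares, and those of lists also against the shares of described sequences. Among the 5733 sequences whose match has a described protein, 157 (2.74%) were higher and 149 (2.6%) lower, and the median was -0.16. Another 1793 sequences matched proteins without a description, of which 26 (1.45%) were higher and 87 (4.85%) lower, with a median of -0.31. Sequences with no protein match numbered 4512, of which 75 (1.66%) were higher and 337 (7.47%) lower, with a median of -0.37. They had a median of 112 reads in the 2 libraries together, against 246 for described ones. At mean levels of 200 RPKM or more, 43 of 469 sequences were higher and 17 lower, whereas below 20 RPKM 106 of 4317 were higher and 327 lower.

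**Figure D1:**
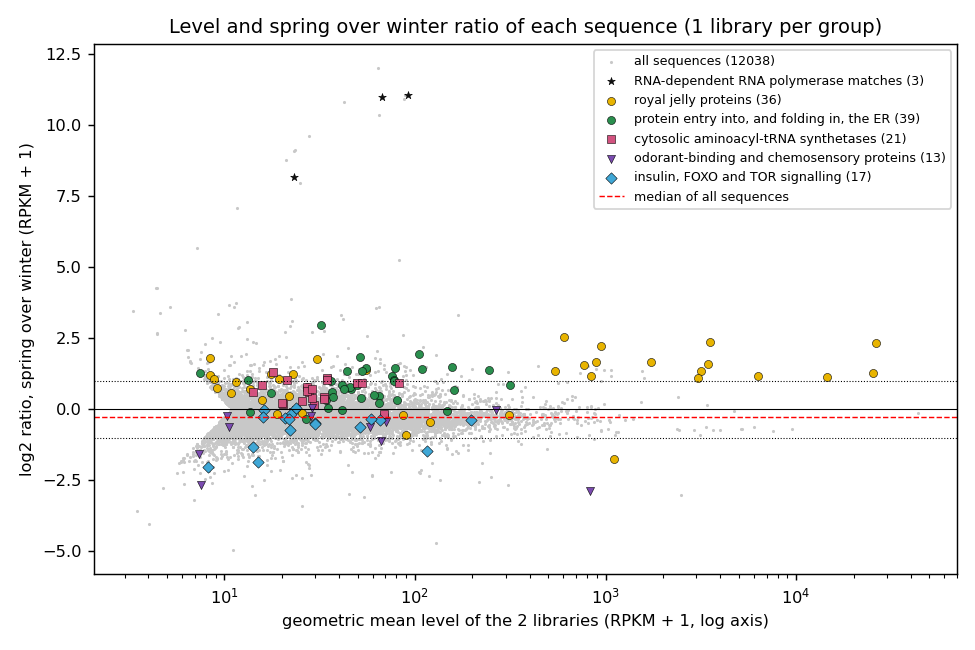
Log2 ratio of spring over winter (vertical axis, RPKM + 1) against the geometric mean level of both libraries (horizontal log axis, RPKM + 1), 1 point per sequence for 12038 sequences. The dotted lines mark 2-fold, the red dashed line the median of all sequences (-0.26). Royal jelly and ER sequences lie mostly above the median line, and all 3 RNA-dependent RNA polymerase matches above 8 on the vertical axis.

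Sequences of the secretory pathway were mostly higher in the spring library. Over 6 lists that follow a secreted protein through the ER and into vesicles, 18 of 106 sequences passed 2-fold higher (31 under median-of-ratios scaling) and 0 passed 2-fold lower, and their median log2 ratio was 0.43. The design text of the series names protein processing in the ER as found on these samples, so the direction of these lists is not independent evidence. In a pool of tissue, fewer cells of a type and less RNA per cell cannot be told apart, here and for every group that follows.

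The first step, entry of new proteins into the ER, had 9 of its 20 sequences at least 2-fold higher in spring, and all 20 lay above the median of all sequences. Its median was 0.82. The alpha subunit of the translocon-associated complex (TRAP alpha, TC13695), which sits beside the Sec61 channel, had 88.7 RPKM in the spring library and 10.5 RPKM in the winter library. It was 8.46-fold higher in spring (6.46 to 11.2), the largest ratio of the list. Sec61 alpha (TC12619), the channel itself and the most abundant sequence of the list, had 207 RPKM in the spring library and 52.6 RPKM in the winter library and was 3.94-fold higher in spring (3.50 to 4.44). Its small partner Sec61 beta (TC12693) had 96.1 RPKM in spring and 26.3 RPKM in winter and was 3.65-fold higher in spring (2.91 to 4.61). TRAP gamma (TC13205) stood at 90.8 RPKM in spring and 32.6 RPKM in winter, 2.78-fold higher in spring (2.12 to 3.68). Chosen after their values were seen, the other 5 were TRAP beta, TRAP delta, Sec61 gamma, SEC63, which couples the channel to a chaperone, and SEC11, the catalytic subunit that cuts off signal peptides, with folds between 2.04-fold and 2.68-fold. Every subunit of TRAP and of the Sec61 channel past the minimum was thus at least 2-fold higher.

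Inside the ER, 6 of 19 folding sequences were at least 2-fold higher (10 under median-of-ratios scaling) and 0 lower, with a median of 0.79. Hsc70-3 (TC13012), the ER member of the 70 kDa heat shock family, had 261 RPKM in the spring library and 92.7 RPKM in the winter library and was 2.81-fold higher in spring (2.62 to 3.03). Endoplasmin (TC13847), the ER member of the 90 kDa family, stood at 129 RPKM in spring and 46.7 RPKM in winter, 2.76-fold higher in spring (2.50 to 3.04). Calreticulin (TC22521), which holds glycoproteins while they fold, had 392 RPKM in spring and 149.9 RPKM in winter and was 2.62-fold higher in spring (2.45 to 2.80). A DnaJ subfamily B member 11 match (TC17990), a co-chaperone of Hsc70-3, was 2.58-fold higher in spring (2.06 to 3.24), with 69.2 RPKM in spring and 26.9 RPKM in winter. The most abundant sequence of the list, protein disulfide isomerase (TC16353), which makes disulfide bonds, had 421 RPKM in spring and 234 RPKM in winter and was 1.80-fold higher in spring (1.65 to 1.97), just under the 2-fold line.

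Sugar chains and export followed with smaller ratios. N-glycan transfer had 2 of 16 sequences at least 2-fold higher (4 under median-of-ratios scaling), both matching Rpn1, a subunit of the oligosaccharyltransferase that attaches the chains, and a median of 0.49. The better read Rpn1 sequence (TC16453) stood at 75.2 RPKM in spring and 30.9 RPKM in winter, 2.44-fold higher in spring (1.79 to 3.35). Its most abundant member, another subunit match of that enzyme (TC15910), was at 182 RPKM in spring and 167 RPKM in winter, 1.09-fold higher in spring (1.01 to 1.17), so the subunits of 1 enzyme did not share 1 ratio. Coats and cargo receptors of COPI and COPII vesicles, which shuttle between the ER and the Golgi, had 0 of 16 at least 2-fold higher (3 under median-of-ratios scaling) but 15 of 16 above 0, with a median of 0.53. An emp24 family cargo receptor (TC14979) had 195 RPKM in spring and 98.8 RPKM in winter and Sec23A (TC12717), part of the COPII coat, 93.04 RPKM in spring and 51.95 RPKM in winter. ER-associated degradation, which removes misfolded proteins, had 0 of 8 past 2-fold and a median of 0.31. Its largest ratio was that of the sel-1 match (TC15620), 1.73-fold higher in spring (1.502 to 1.99).

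Rab GTPases, switches that direct vesicles to their targets, had a median of -0.05, which became 0.20 under median-of-ratios scaling. Among 27 sequences, 1 passed 2-fold. It was the match to Rab-27A (TC13256), known in mammals for docking secretory granules at the plasma membrane, with 114 RPKM in the spring library and 32.3 RPKM in the winter library, 3.54-fold higher in spring (2.97 to 4.24). The most abundant Rab, Rab-1A (TC14871), had 120.2 RPKM in spring and 113 RPKM in winter and was 1.06-fold higher in spring (0.968 to 1.17). The Rab values thus spread around the median of all sequences with a single member far from it.

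**Figure D2:**
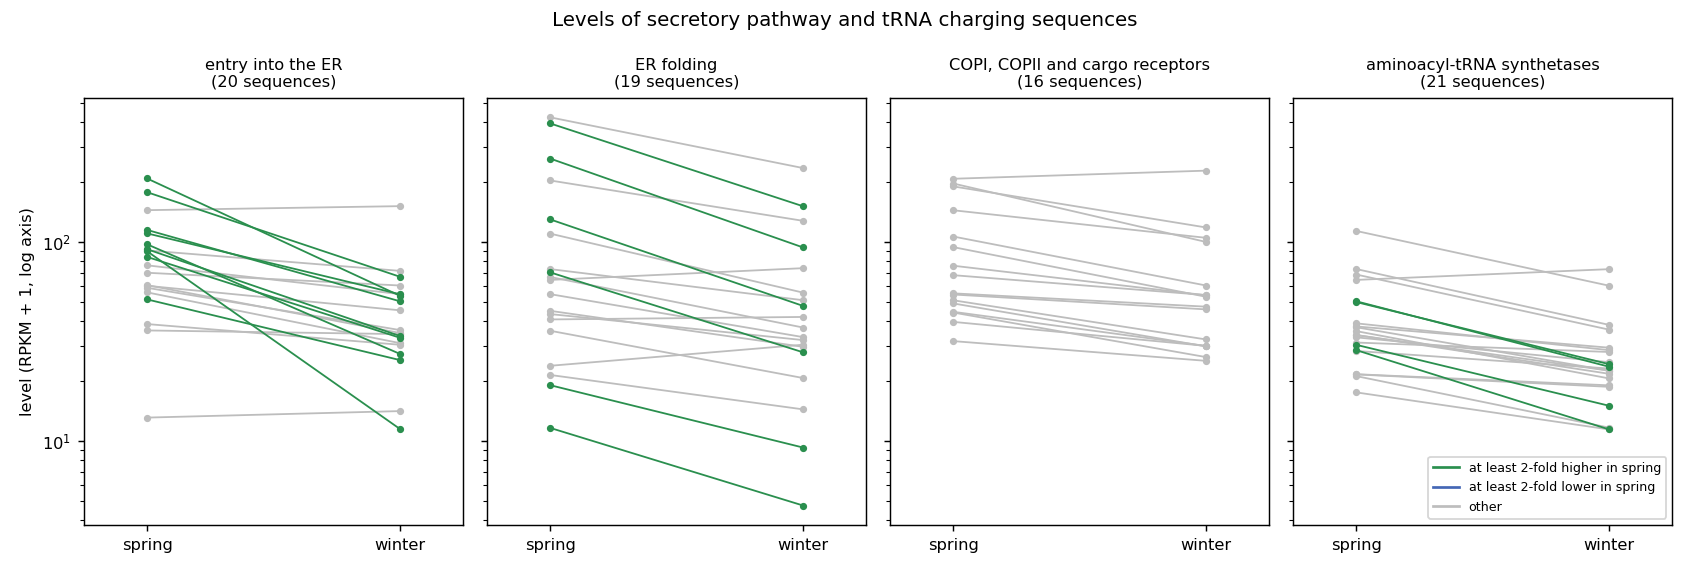
Level (RPKM + 1, log axis) of each sequence in the spring (left) and winter (right) library for 4 lists, 1 line per sequence. Green lines are at least 2-fold higher in spring; 9 of 20, 6 of 19, 0 of 16 and 4 of 21 sequences are green, and none is at least 2-fold lower.

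Among sequences of protein synthesis the steps differed. Over 5 lists, 12 of 231 sequences were at least 2-fold higher in spring (28 under median-of-ratios scaling) and 1 at least 2-fold lower, with a median of 0.14. Cytosolic aminoacyl-tRNA synthetases join each amino acid to its tRNA. They had 20 of 21 sequences above 0, 4 at least 2-fold higher (9 under median-of-ratios scaling), and a median of 0.65. Seryl-tRNA synthetase (TC15177) had 27.5 RPKM in spring and 10.4 RPKM in winter and was 2.65-fold higher in spring (2.05 to 3.44). Alanyl-tRNA synthetase (TC15917) stood at 49.2 RPKM in spring and 22.6 RPKM in winter, 2.18-fold higher in spring (1.91 to 2.49). The glutamate and proline enzyme (TC16629) and tyrosyl-tRNA synthetase (TC14392) were both 2.10-fold higher. The most abundant of the list, asparaginyl-tRNA synthetase (TC14402), had 112 RPKM in spring and 59.2 RPKM in winter and was 1.90-fold higher in spring (1.69 to 2.14).

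Initiation and elongation factors had a smaller median of 0.36, with 36 of 45 sequences above 0 and 1 at least 2-fold higher (6 under median-of-ratios scaling). That 1, an initiation factor 5A match (DB737364), rested on 24 spring against 12 winter reads, 2.34-fold higher in spring (1.13 to 5.14). Elongation factor 1-beta (TC13246) stood at 179 RPKM in spring and 93.5 RPKM in winter and elongation factor 1-alpha (TC20162), which brings loaded tRNA to the ribosome, at 775 RPKM in spring and 411 RPKM in winter. Elongation factor 2 (TC17681), the most abundant of the list, had 790.1 RPKM in spring and 1018 RPKM in winter and was 1.29-fold lower in spring (1.25 to 1.32). Elongation factors 1 and 2 of the same cycle thus stood on opposite sides of 0.

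Cytosolic ribosomal proteins, the bulk of the ribosome, did not share the positive ratios of the tRNA synthetases. Their median over 74 sequences was -0.14, and it changed sign to 0.11 under median-of-ratios scaling. Together they had 25591 RPKM in spring and 28321 RPKM in winter. The most abundant of them, RpL38 (TC22941), had 1106 RPKM in spring and 1433 RPKM in winter and was 1.30-fold lower in spring (1.20 to 1.40). The 2 that passed 2-fold were thinly read. An RpL35a match (DB733754) had 11 spring against 1 winter reads and was 12.9-fold higher in spring (1.87 to 554), and an RpS3a match (BP875096) had 8 spring against 42 winter reads and was 4.49-fold lower in spring (2.08 to 11.1).

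Factors that build ribosomes in the nucleolus had 5 of 35 sequences at least 2-fold higher in spring, 34 above the median of all sequences, and a median of 0.23. The match to ribosome biogenesis regulatory protein (NP9549937) had 30.4 RPKM in spring and 8.66 RPKM in winter and was 3.51-fold higher in spring (2.36 to 5.34). The cell growth-regulating nucleolar protein match (TC21238) was 2.37-fold higher in spring (1.78 to 3.19), with 53.4 RPKM in spring and 22.5 RPKM in winter. Nucleolar complex protein 2 (NP9546344) stood at 10.3 RPKM in spring and 3.90 RPKM in winter, 2.63-fold higher in spring (1.71 to 4.13), and periodic tryptophan protein 1 (TC17316) at 18.7 RPKM in spring and 8.15 RPKM in winter, 2.29-fold higher in spring (1.60 to 3.33). The most abundant sequence of this list, the NSA2 match (NP9553288), was at 90.1 RPKM in spring and 88.6 RPKM in winter, and the interval of its fold held 1 (1.02-fold higher in spring (0.848 to 1.22)). Mitochondrial ribosomal proteins had 49 of 56 sequences above the median of all and a median of 0.13, with 1 past 2-fold (6 under median-of-ratios scaling), S17 (NP9553821), 2.34-fold higher in spring (1.16 to 4.96).

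Amino acid metabolism held 3 of the 15 highest described sequences. Amino acid synthesis as a list had a median of -0.10, which turned to 0.16 under median-of-ratios scaling, with 2 of 19 higher (5 under that scaling) and 1 lower. Both higher ones were asparagine synthetases, which make asparagine from aspartate with glutamine as nitrogen donor. The first (TC18735) had 214 RPKM in the spring library and 17.1 RPKM in the winter library, 12.5-fold higher in spring (10.4 to 15.2). The second (TC19078), matched in Apis florea, stood at 65.7 RPKM in spring and 6.78 RPKM in winter, 9.69-fold higher in spring (6.38 to 15.3). D-3-phosphoglycerate dehydrogenase (TC22517), the first enzyme of serine synthesis, was on the other side with 19.3 RPKM in spring and 48.6 RPKM in winter, 2.52-fold lower in spring (2.10 to 3.05). Glutamine synthetase (TC21974), the most abundant member, had 521 RPKM in spring and 559 RPKM in winter and was 1.07-fold lower in spring (1.02 to 1.13).

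For amino acid breakdown the median was 0.16 over 12 sequences, with 1 past 2-fold. It matched a mitochondrial kynurenine/alpha-aminoadipate aminotransferase (NP9552306) and had 15.4 RPKM in spring and 1.36 RPKM in winter, 11.3-fold higher in spring (4.89 to 32.1). A second sequence with the same kind of match (TC17889) was at 17.7 RPKM in spring and 12.8 RPKM in winter, 1.39-fold higher in spring (0.951 to 2.03). Purine, pyrimidine and one-carbon synthesis also had 1 sequence past 2-fold among 18. It was CAD (TC12411), the enzyme that carries out the first steps of pyrimidine synthesis, with 39.7 RPKM in spring and 13.6 RPKM in winter, 2.91-fold higher in spring (2.57 to 3.30), against a list median of 0.17.

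Lysosomal hydrolases held a set with large positive ratios beside many sequences near the median. Of 27 sequences, 7 passed 2-fold higher and 2 passed 2-fold lower (1 under median-of-ratios scaling), while the median was -0.06 and turned to 0.18 under median-of-ratios scaling. The 7 belonged to 3 kinds of enzyme. A glucosylceramidase match (TC18376), which splits glucose from a membrane lipid, had 129 RPKM in spring and 11.9 RPKM in winter, 10.8-fold higher in spring (8.67 to 13.7), and a second sequence with that match (TC19526) was 6.30-fold higher in spring (4.96 to 8.09). The venom acid phosphatase Acph-1 match (TC15604) stood at 532 RPKM in the spring library and 52.7 RPKM in the winter library, 10.1-fold higher in spring (8.81 to 11.6), and its second sequence (TC19397) was 9.75-fold higher in spring (6.53 to 15.1). Matches to lysosomal alpha-mannosidase, which trims mannose from glycoproteins, made up the other 3. The best read (TC13073) had 235 RPKM in spring and 50.7 RPKM in winter, 4.63-fold higher in spring (4.23 to 5.08), and DB753489 had 30.9 RPKM in spring and 3.36 RPKM in winter, 9.20-fold higher in spring (4.18 to 23.9). A different glucosylceramidase gene (LOC409709, TC12483) was the most abundant of the list and hardly differed, at 749.7 RPKM in spring and 708 RPKM in winter, 1.06-fold higher in spring (1.02 to 1.10). The 2 lower members matched arylsulfatases B and J (TC20326 and TC12572), 2.47-fold and 3.32-fold lower in spring.

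The venom-named list shared the acid phosphatase sequences and added venom dipeptidyl peptidase 4 (NP9553470), an enzyme that cuts dipeptides from protein ends, with 35.96 RPKM in spring and 9.07 RPKM in winter, 3.96-fold higher in spring (3.08 to 5.15). Secapin-3 (TC19958), a small venom peptide, was lower on 10 spring against 30 winter reads, 2.56-fold lower in spring (1.22 to 5.88). V-ATPase and autophagy sequences, which acidify the lysosome and feed it, had 0 of 26 past 2-fold and a median of -0.14, or 0.11 under median-of-ratios scaling.

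The highest described sequences outside these lists came from several families. Glucose dehydrogenase [acceptor] (TC14055), an enzyme that oxidises glucose, had 507 RPKM in the spring library and 12.3 RPKM in the winter library on 3875 spring against 110 winter reads and was 41.2-fold higher in spring (34.1 to 50.3). A second glucose dehydrogenase gene (TC14254) was lower at 4.80 RPKM in spring and 16.2 RPKM in winter, 3.37-fold lower in spring (2.35 to 4.95). Gustatory receptor 10 (Gr10, TC16133), a taste receptor family member, had 59.5 RPKM in spring and 6.98 RPKM in winter, 8.53-fold higher in spring (5.73 to 13.2). It was 1 of 2 receptors of odour or taste that reached 10 RPKM, out of 18 matched. Protein 5NUC (TC13407), a nucleotidase match, had 72.3 RPKM in spring and 10.2 RPKM in winter and was 7.06-fold higher in spring (5.78 to 8.71). An alcohol dehydrogenase match (TC21661) stood at 31.6 RPKM in spring and 3.37 RPKM in winter, 9.36-fold higher in spring (5.24 to 18.2). A match to sonic hedgehog protein A (NP9543709) rested on 23 spring against 2 winter reads, 13.5-fold higher in spring (3.33 to 118).

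**Figure D3:**
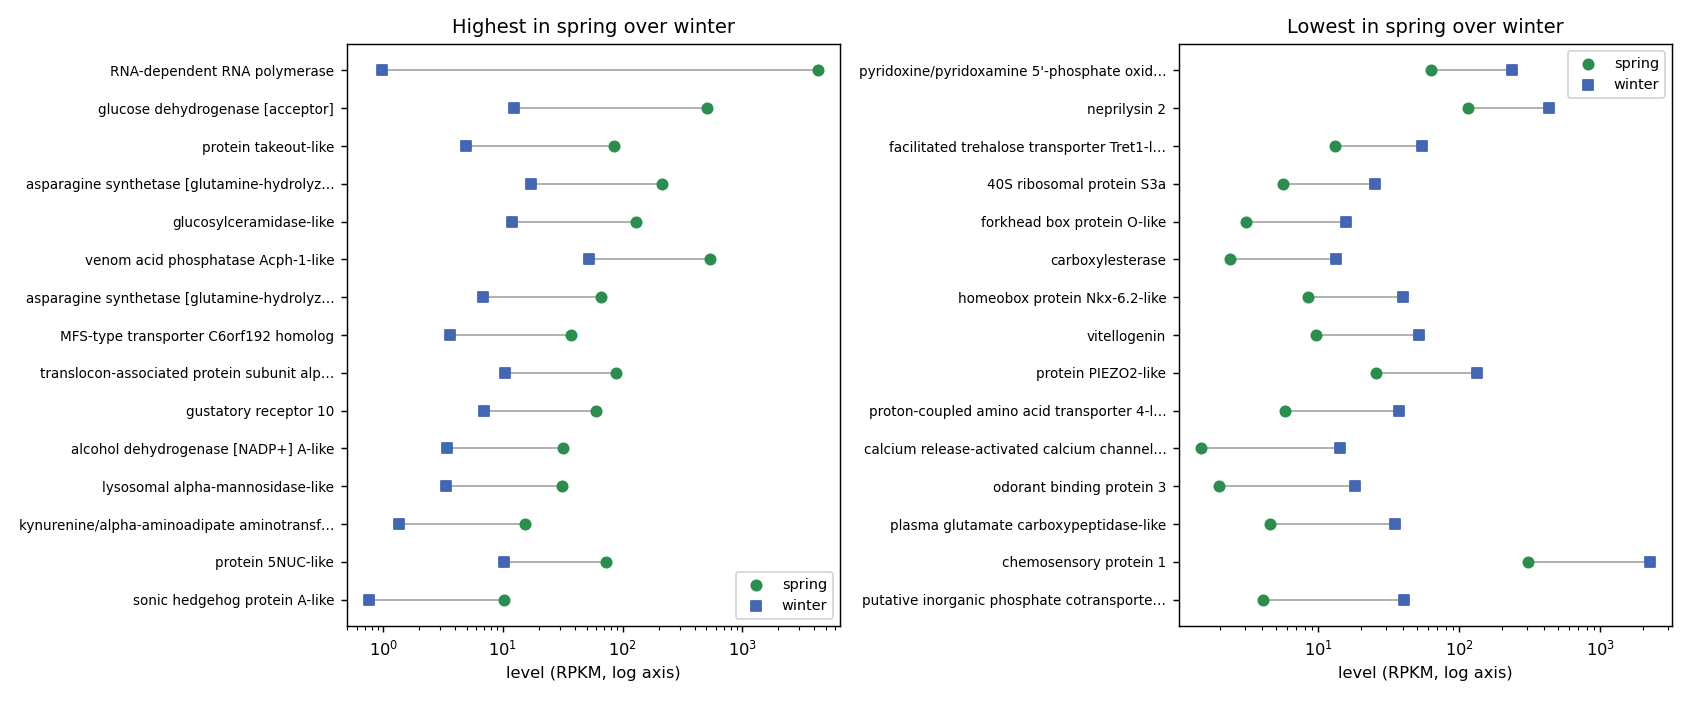
Level (RPKM, log axis) in the spring (green circles) and winter (blue squares) library of the 15 highest (left) and 15 lowest (right) described sequences by ratio, 1 sequence per protein. A grey line joins the 2 values of a sequence. The RNA-dependent RNA polymerase match is at 4294 RPKM in spring and 0.984 RPKM in winter, and chemosensory protein 1 at 308 RPKM in spring and 2252 RPKM in winter.

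A separate set was read almost only in the spring library. There were 14 sequences with at least 100 reads in spring and fewer than 3 in winter, and together they took 38706 spring reads (1.18%) and 9 winter reads. No sequence had at least 100 reads in winter and fewer than 3 in spring. Of the 14, 3 matched 1 protein, an RNA-dependent RNA polymerase from the spider Latrodectus hesperus. This enzyme copies RNA from RNA, and RNA viruses carry one. These 3 had 13743 spring reads and 4 winter reads. TC16651 had 7454 spring against 2 winter reads, a ratio of 4362-fold (1207 to 36024), and TC23784 had 5375 spring against 1 winter reads, a ratio of 6291-fold (1129 to 248513). The other 11 had no protein match. TC22226 had 5359 reads in spring and 0 in winter, at least 2091-fold more when 3 winter reads are allowed. The files give no organism for these 11, and what they are was not tested.

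Sequences of lipid metabolism and of hormone and nutrient signalling were more often lower than higher in spring. Over 7 such lists, 16 of 107 were at least 2-fold lower (11 under median-of-ratios scaling), 4 at least 2-fold higher, and the median was -0.37. Fatty acid oxidation differed from the other lists in having a median above 0 on both scales. In fatty acid synthesis, elongation and reduction, 3 of 14 were lower and 1 higher, with a median of -0.43. The 3 lower ones carry out successive or closely linked steps. Acetyl-CoA carboxylase (TC13271), which commits acetyl-CoA to fatty acids, had 13.5 RPKM in spring and 31.3 RPKM in winter, 2.32-fold lower in spring (2.04 to 2.65). Fatty acid synthase (TC14567), which builds the chain, had 59.2 RPKM in spring and 138 RPKM in winter, 2.33-fold lower in spring (2.19 to 2.48). Fatty acyl-CoA reductase 1 (FAR1, TC14245), which makes fatty alcohols, had 36.4 RPKM in spring and 85.9 RPKM in winter, 2.36-fold lower in spring (2.06 to 2.70). The most abundant member, an acyl-CoA delta-11 desaturase match (TC15577), was just under 2-fold at 157 RPKM in spring and 311 RPKM in winter, 1.98-fold lower in spring (1.83 to 2.14). Under median-of-ratios scaling, 0 members of this list passed 2-fold lower.

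Lipases and phospholipases were also below the median of all, at -0.43. Of 24 sequences, 3 were at least 2-fold lower (2 under median-of-ratios scaling) and 0 higher. The most abundant, a phospholipase B match named after lamina ancestor (TC13792), had 144 RPKM in spring and 423 RPKM in winter, 2.94-fold lower in spring (2.74 to 3.15). Phospholipase B1 (TC15231) stood at 10.2 RPKM in spring and 34.9 RPKM in winter, 3.43-fold lower in spring (2.52 to 4.76). A diacylglycerol lipase match (DB730508) rested on 12 spring against 31 winter reads. Fatty acid oxidation, the breakdown route, lay on the other side with a median of 0.19 and 12 of 17 sequences above 0, with 1 at least 2-fold lower on 10 spring against 36 winter reads (NP9553763, an enoyl-CoA hydratase domain protein chosen after its value was seen). Its most abundant member, 3-hydroxyacyl-CoA dehydrogenase type 2 (TC14757), had 127 RPKM in spring and 104.6 RPKM in winter, 1.21-fold higher in spring (1.06 to 1.38).

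Among storage proteins and lipid carriers, vitellogenin (Vg, TC12290) had 9.69 RPKM in the spring library and 51.8 RPKM in the winter library and was 5.35-fold lower in spring (4.55 to 6.32). An apolipophorin-III-like protein (A4, TC13121), a carrier of lipid in blood, was on the opposite side at 24.04 RPKM in spring and 10.3 RPKM in winter, 2.34-fold higher in spring (1.70 to 3.26). Hexamerin (TC12320), a storage protein, had 10.8 RPKM in spring and 21.2 RPKM in winter, 1.96-fold lower in spring (1.53 to 2.52), and apolipoprotein D (TC12442), the most abundant, 283 RPKM in spring and 274 RPKM in winter. With members on both sides, the list median of -0.21 lay between those of all (-0.26) and of described sequences (-0.16). It became 0.04 under median-of-ratios scaling. Vitellogenin and hexamerin are made chiefly in the fat body, and the part of fat body in these values was not tested.

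Takeout proteins and enzymes named for juvenile hormone or ester cleavage had the widest spread of any hormone list, from -2.09 to 3.88, around a median of -0.70. Takeout is a carrier family of small lipids, tied in Drosophila to feeding. A takeout-like sequence (TC13883) had 85.1 RPKM in spring and 4.86 RPKM in winter, 17.5-fold higher in spring (11.5 to 27.99), and a second entry with the same match (TC16421) was 18.7-fold higher in spring (6.97 to 70.8). Another carrier of this family, JHBP-1 (TC12472), which the list's wording did not take in and which was chosen after its values were seen, was 2.58-fold higher in spring (2.14 to 3.12). Lower were 3 esterases. A carboxylesterase match (NP9550058) had 2.36 RPKM in spring and 13.4 RPKM in winter, 5.65-fold lower in spring (3.14 to 11.04), an esterase E4 match (TC14856) had 6.08 RPKM in spring and 21.4 RPKM in winter, 3.52-fold lower in spring (2.48 to 5.11), and an esterase FE4 match (TC13441) was 3.09-fold lower. The other 7 members of the list passed 2-fold in neither direction and had ratios below 0, so the 2 takeout entries were its only sequences above 0.

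Ecdysone response genes and nuclear receptors had 0 of 13 sequences above 0 and a median of -0.47. FTZ-F1 beta (NP9550234), a nuclear receptor, was the 1 past 2-fold, at 33.01 RPKM in spring and 75.7 RPKM in winter, 2.29-fold lower in spring (1.997 to 2.64). Ecdysone-induced protein 75 (E75, TC21206), the most abundant, had 83.9 RPKM in spring and 157 RPKM in winter and was 1.87-fold lower in spring (1.73 to 2.03). Both other sequences matching E75 were lower as well, at 1.92-fold (TC16035) and 2.03-fold (TC17506), both under 2-fold on the scale of RPKM + 1. Under median-of-ratios scaling, 0 of the list passed 2-fold.

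Insulin, FOXO and TOR signalling, the nutrient-sensing route, had 4 of 17 sequences at least 2-fold lower and 0 higher, and the same counts under median-of-ratios scaling. Its median was -0.37. All 4 matched 1 of 2 proteins. For 2 of them it was FOXO, a transcription factor held inactive by insulin signalling. The better read (TC20293) had 7.96 RPKM in spring and 21.5 RPKM in winter, 2.70-fold lower in spring (1.92 to 3.86), and TC18635 had 5 spring against 30 winter reads, 5.13-fold lower in spring (1.97 to 16.9). The other 2 matched sestrin-1, a stress protein that restrains TOR in other animals. NP9551281 had 69.3 RPKM in the spring library and 191 RPKM in the winter library, 2.76-fold lower in spring (2.43 to 3.15), and DB752044 had 6.93 RPKM in spring and 27.4 RPKM in winter, 3.96-fold lower in spring (2.04 to 8.43). The most abundant of the list, the match to the binding protein of initiation factor 4E (TC12997), a brake on translation, had 172 RPKM in spring and 222 RPKM in winter and was 1.29-fold lower in spring (1.14 to 1.47). FOXO and sestrin sequences were thus lower in both entries of each protein.

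Transporters of small molecules had members on both sides. Over 3 lists, 6 of 83 (7.23%) passed 2-fold higher (9 under median-of-ratios scaling) and 5 (6.02%) passed 2-fold lower. Among all sequences the shares were 2.14% and 4.76%, and among described ones 2.74% and 2.6%. The median of the 3 lists was -0.26, that of all sequences and below that of described ones (-0.16). The list of monocarboxylate, phosphate and other anion transporters was matched by words. In it an MFS-type transporter (C6orf192 homolog, TC12435) had 37.3 RPKM in spring and 3.58 RPKM in winter, 10.4-fold higher in spring (6.62 to 17.2). Whether it carries anions was not tested. A sodium-coupled monocarboxylate transporter match (NP9553933) stood at 29.9 RPKM in spring and 4.61 RPKM in winter, 6.49-fold higher in spring (4.51 to 9.58), and monocarboxylate transporter 12 (TC17025) at 44.5 RPKM in spring and 13.3 RPKM in winter, 3.33-fold higher in spring (2.64 to 4.24). A phosphate cotransporter match (NP9549518) was far on the other side, with 4.07 RPKM in spring and 40.3 RPKM in winter, 9.89-fold lower in spring (6.19 to 16.7), the lowest ratio among described sequences with at least 20 reads outside the royal jelly and honey enzyme lists.

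Amino acid transporters included the large neutral amino acid transporter (TC17752) at 82.3 RPKM in spring and 30.3 RPKM in winter, 2.71-fold higher in spring (2.29 to 3.22), and a Y+L amino acid transporter match (DB772616), 2.63-fold higher in spring (1.09 to 6.999). The proton-coupled amino acid transporter 4 match (NP9553622) was lower at 5.82 RPKM in spring and 37.5 RPKM in winter, 6.44-fold lower in spring (4.33 to 9.92). A second gene with the same name (LOC410741, TC20939), the most abundant of the list, had 176 RPKM in spring and 232 RPKM in winter, 1.32-fold lower in spring (1.21 to 1.44). Sugar transporters likewise held genes of 1 name with different ratios. The trehalose transporter Tret1 match of LOC552592 (NP9547680) had 13.2 RPKM in spring and 53.99 RPKM in winter, 4.09-fold lower in spring (3.14 to 5.41). The Tret1 match of LOC551553 (TC14673) had 179.7 RPKM in spring and 89.6 RPKM in winter, 2.005-fold higher in spring (1.82 to 2.21), and the most abundant Tret1 match (TC21199) was level at 395 RPKM in spring and 392 RPKM in winter. A facilitated glucose transporter match (TC13428) was 2.10-fold higher in spring (1.75 to 2.53).

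The list of metallopeptidases of the cell surface had 6 of 37 sequences at least 2-fold lower and 1 higher, with a median of -0.35. It was matched by words and also took in peptidases named as secreted or of the ER. Of the 6, 4 belonged to 1 gene, LOC410149, matched to plasma glutamate carboxypeptidase. Its most read entry (TC16621) had 51.2 RPKM in the spring library and 266 RPKM in the winter library on 335 spring against 2035 winter reads, 5.19-fold lower in spring (4.62 to 5.84). The other 3 (TC14830, DB735438 and TC12937) were 7.69-fold, 5.71-fold and 5.37-fold lower. Neprilysin 2 (TC14261), which degrades signalling peptides, had 116 RPKM in spring and 431 RPKM in winter, 3.73-fold lower in spring (3.50 to 3.97). The other lower one matched ER aminopeptidase 2 (TC17859) and was 2.89-fold lower in spring (2.53 to 3.30). Aminopeptidase N (TC14129), the most abundant, stood nearer the median at 898 RPKM in spring and 1232 RPKM in winter, 1.37-fold lower in spring (1.34 to 1.41). The 1 higher member was the venom dipeptidyl peptidase 4 given above, a serine peptidase that the list's wording took in.

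Other described sequences with low ratios belonged to several families. PIEZO2, matched by 3 sequences, is an ion channel opened by membrane stretch. NP9547977 had 25.5 RPKM in spring and 134 RPKM in winter, 5.24-fold lower in spring (4.14 to 6.72), TC16707 had 34.03 RPKM in spring and 159.9 RPKM in winter, 4.70-fold lower in spring (4.20 to 5.27), and TC23401 had 49.8 RPKM in spring and 225 RPKM in winter, 4.52-fold lower in spring (4.15 to 4.92). All 3 parts of this long transcript thus gave nearly the same ratio. A calcium release-activated calcium channel match (NP9545413) was 9.61-fold lower in spring (3.50 to 36.8) on 4 spring against 45 winter reads. A homeobox protein Nkx-6.2 match (NP9549888), a transcription factor, had 8.40 RPKM in spring and 39.9 RPKM in winter, 4.75-fold lower in spring (2.77 to 8.67). A pyridoxine 5'-phosphate oxidase match (TC13319), an enzyme that makes active vitamin B6, had 63.1 RPKM in spring and 236 RPKM in winter, 3.74-fold lower in spring (3.17 to 4.44), and a second entry with this match (BI506323) was 3.38-fold lower.

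Odorant-binding and chemosensory proteins are small soluble carriers, known from antennae and found in other tissues too. Of 28 matched sequences 13 passed the minimum. Of these, 4 were at least 2-fold lower in spring (3 under median-of-ratios scaling) and 0 higher, with a median of -0.44. Chemosensory protein 1 (CSP1, TC15471) had 308 RPKM in the spring library and 2252 RPKM in the winter library on 604 spring against 5173 winter reads, 7.32-fold lower in spring (6.73 to 7.97). The summed level of the list was 859.7 RPKM in spring and 2961 RPKM in winter. Obp3 (TC20616) rested on 3 spring against 32 winter reads, 9.11-fold lower in spring (2.85 to 46.5), and Obp14 (TC14083) on 6 spring against 25 winter reads, 3.56-fold lower in spring (1.43 to 10.6). Obp4 (TC13645) had 43.95 RPKM in spring and 96.7 RPKM in winter, 2.20-fold lower in spring (1.71 to 2.85). Of the odorant receptors, which mark antennal nerve cells, only a match to receptor 56a (NP9547235) reached 10 RPKM, at 22.9 RPKM in spring and 30.5 RPKM in winter. The part of antennal tissue in these values was not tested.

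**Figure D4:**
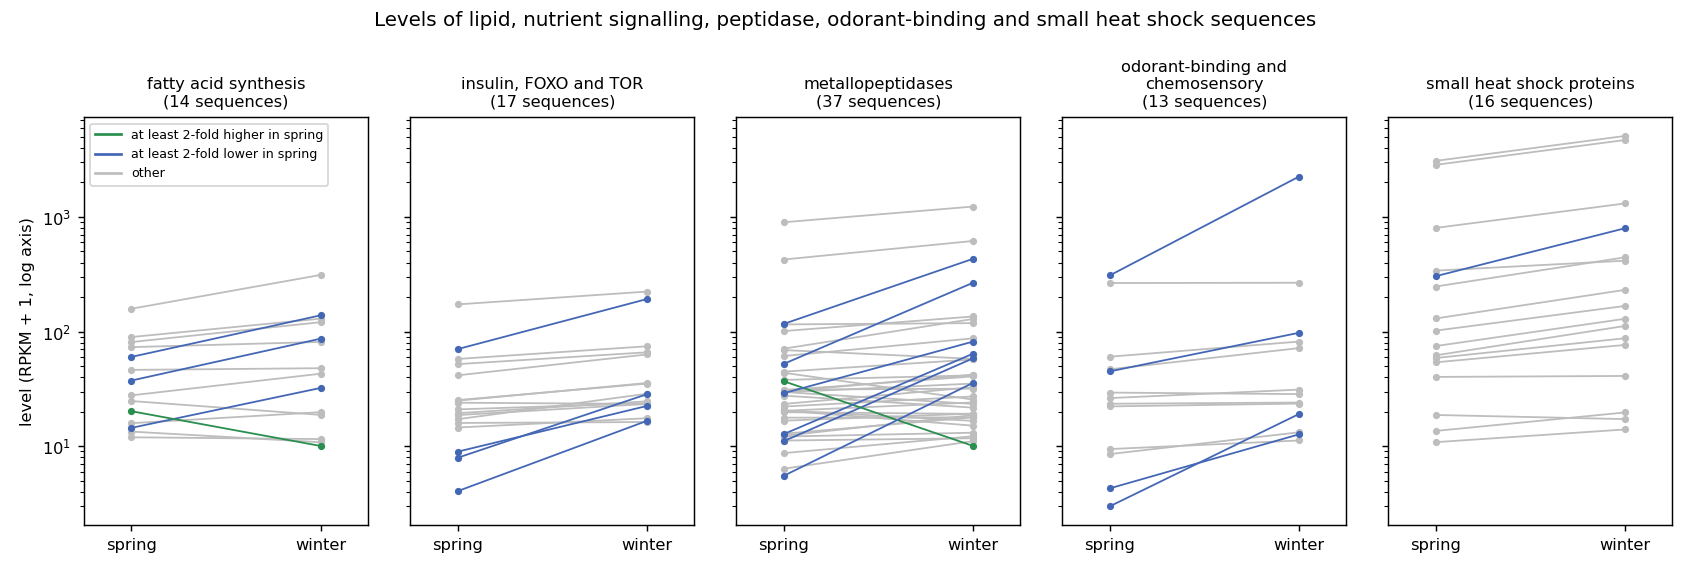
Level (RPKM + 1, log axis) of each sequence in the spring (left) and winter (right) library for 5 lists, 1 line per sequence. Blue lines are at least 2-fold lower in spring and number 3, 4, 6, 4 and 1 from left to right; green lines are at least 2-fold higher.

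Small heat shock proteins, chaperones that hold unfolded proteins, had the lowest median of all lists at -0.71, and -0.45 under median-of-ratios scaling. Of 16 sequences, 1 was above 0 and 1 was at least 2-fold lower. Most matched lethal(2)essential for life, a family of these chaperones. TC12617 had 303 RPKM in spring and 797 RPKM in winter, 2.63-fold lower in spring (2.46 to 2.81). The most abundant (TC21895) had 3085 RPKM in the spring library and 5091 RPKM in the winter library and was 1.65-fold lower in spring (1.62 to 1.68). TC14876, nearly as abundant, was 1.65-fold lower in spring (1.61 to 1.68). The most abundant members were thus lower by nearly the same, less than 2-fold. The large cytosolic chaperones had a median of 0.16. Their most abundant member Hsc70-4 (TC12710) stood at 1678 RPKM in spring and 1396 RPKM in winter, 1.20-fold higher in spring (1.17 to 1.23), and the Hsp70Ab match (TC16246), a stress-induced gene in Drosophila, at 49.5 RPKM in spring and 74.3 RPKM in winter, 1.502-fold lower in spring (1.32 to 1.71).

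Antioxidant enzymes had 1 of 20 sequences at least 2-fold lower, against 4.76% of all sequences. Their median was -0.07, which turned to 0.18 under median-of-ratios scaling with 0 past 2-fold. The lower member, a peroxiredoxin (Tpx-4, TC12563), was the most abundant of the list with 236 RPKM in spring and 509.6 RPKM in winter, 2.16-fold lower in spring (1.99 to 2.34). Catalase (TC12461), which breaks down hydrogen peroxide, had 23.9 RPKM in spring and 38.6 RPKM in winter, 1.62-fold lower in spring (1.34 to 1.95). Cytochrome P450 enzymes, which oxidise hormones and foreign compounds, had a median of -0.48, with 13 of 16 at or below the median of all sequences. Of the 16, 2 were at least 2-fold higher and 1 lower. Cyp6a14 (TC14206), at 17.4 RPKM in spring and 5.24 RPKM in winter, was 3.31-fold higher in spring (2.48 to 4.47), and Cyp6k1 (TC16184), at 8.95 RPKM in spring and 20.9 RPKM in winter, was 2.34-fold lower in spring (1.66 to 3.36) and did not pass 2-fold under median-of-ratios scaling. The most abundant P450, 9e2 (TC16406), had 162 RPKM in spring and 215 RPKM in winter, 1.32-fold lower in spring (1.22 to 1.43).

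Immune effectors had 2 of 14 sequences at least 2-fold higher and 2 lower (1 under median-of-ratios scaling). Hymenoptaecin (TC12701), an antimicrobial peptide, had 45 spring against 8 winter reads, 6.58-fold higher in spring (3.07 to 16.2), and a lysozyme match (TC20941), which cuts bacterial walls, 59.3 RPKM in spring and 20.7 RPKM in winter, 2.87-fold higher in spring (1.97 to 4.25). Abaecin (TC23893), another antimicrobial peptide, had 18.7 RPKM in spring and 52.8 RPKM in winter, 2.82-fold lower in spring (1.75 to 4.72), and phenoloxidase (PPO, TC12322), the enzyme of the melanin defence, 12.00 RPKM in spring and 28.2 RPKM in winter, 2.35-fold lower in spring (1.86 to 2.999). Defensin-1 (Def1, TC23147), by far the most abundant of the list, had 2284 RPKM in the spring library and 4289 RPKM in the winter library, 1.88-fold lower in spring (1.82 to 1.94). The antimicrobial peptides thus did not share a direction.

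Sequences of energy metabolism rarely passed 2-fold, but nearly all of the respiratory chain lay above the median of all sequences. Respiratory chain and ATP synthase sequences had a median of 0.12, with 63 of 65 above the median of all sequences and 1 past 2-fold. It was an Ndufs1 match (BI506587) on 14 spring against 35 winter reads that did not pass under median-of-ratios scaling. Under that scaling 1 other sequence passed 2-fold higher. All 9 transcripts of the mitochondrial genome lay above 0, with a median of 0.43. Cytochrome c oxidase subunit I (TC21016) had 3594 RPKM in spring and 3211 RPKM in winter, 1.12-fold higher in spring (1.10 to 1.14). Glycolysis had 1 of 16 sequences at least 2-fold lower (0 under median-of-ratios scaling) and a median of -0.22, which became 0.04 under that scaling. Its most abundant enzyme, aldolase (TC14781), had 773 RPKM in spring and 926 RPKM in winter, 1.20-fold lower in spring (1.16 to 1.24). Proteasome subunits, which degrade proteins in the cytosol, had 0 of 31 past 2-fold (1 higher under median-of-ratios scaling). All 31 lay above the median of all, and their median was 0.12.

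The list of chromatin genes had 4 of 46 sequences at least 2-fold lower, 0 higher and a median of -0.37. Under median-of-ratios scaling 1 was lower. Of all sequences, 4.76% were lower, or 2.35% under that scaling, and of described ones 2.6%, or 1.43%. SETMAR, a histone methyltransferase fused to a transposase in primates, was the match of 3 of the 4. Whether these sequences resemble its methyltransferase or its transposase part was not tested, so they may not be chromatin genes. TC22980, the most abundant, had 93.5 RPKM in spring and 223 RPKM in winter, 2.38-fold lower in spring (2.14 to 2.66). The other, histone deacetylase 4 (BI511975), rested on 6 spring against 16 winter reads. Splicing factors had a median of -0.16 with 1 of 59 past 2-fold, an Sm D2 match (TC15507), 2.96-fold higher in spring (1.71 to 5.33). E3 ubiquitin ligases and cell death regulators had medians of -0.22 and -0.23, between those of all (-0.26) and of described sequences (-0.16). All 3 list medians became positive under median-of-ratios scaling.

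**Figure D5:**
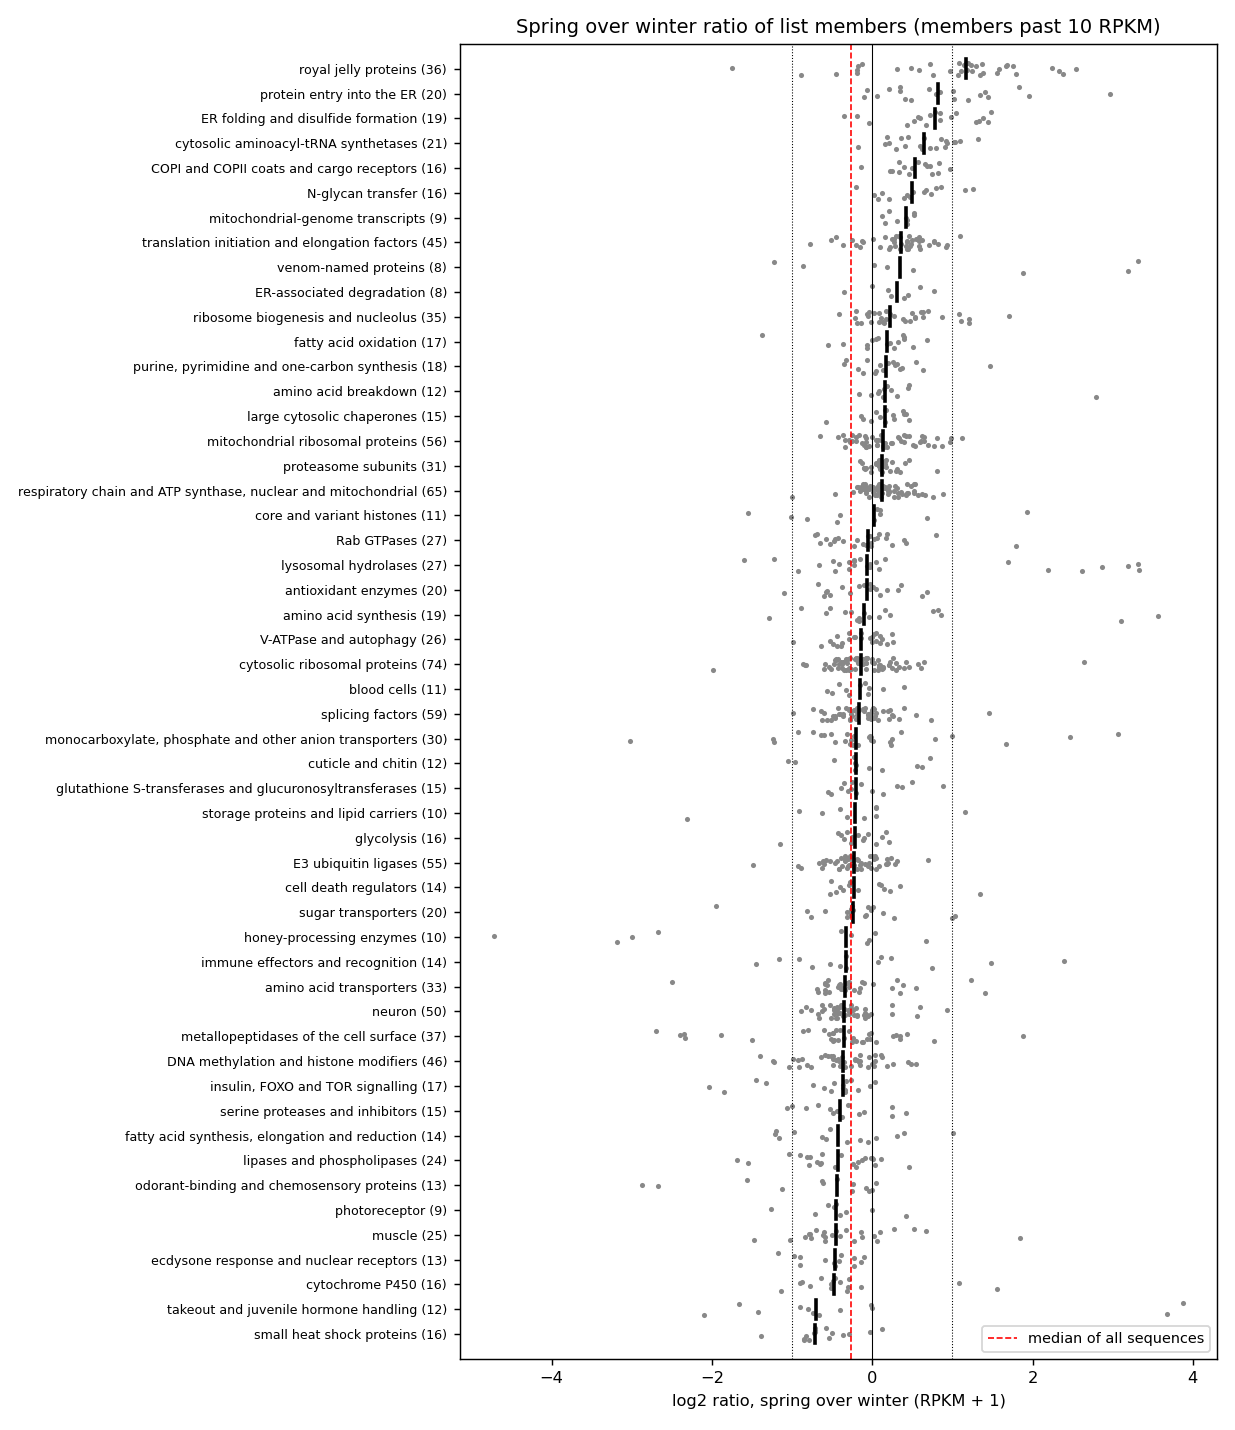
Log2 ratio of spring over winter (horizontal axis, RPKM + 1) of list members with at least 10 RPKM in 1 library, 1 row per list of at least 8 sequences with its number of sequences, sorted by median. Grey points are sequences, black bars list medians, the red dashed line the median of all sequences (-0.26) and dotted lines 2-fold. Among these lists royal jelly proteins, protein entry into the ER, ER folding and tRNA synthetases stand at the top and small heat shock proteins at the bottom.

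Markers of other tissues were present in both libraries, so the values above cannot be placed in gland cells. The 102 neuron marker sequences summed to 2823 RPKM in spring and 3581 RPKM in winter, 4 of them at 0 in spring and 2 at 0 in winter. The 68 muscle sequences summed to 897 RPKM in spring and 1153 RPKM in winter. Photoreceptor sequences (26) summed to 254 RPKM in spring and 319.6 RPKM in winter, and blood cell sequences (18) to 356 RPKM in spring and 396 RPKM in winter. List medians were -0.35 for neurons, -0.45 for muscle, -0.45 for photoreceptors and -0.16 for blood cells. In the neuron list 0 of 50 passed 2-fold. Bruchpilot (TC13107), an active zone protein, had 49.96 RPKM in spring and 69.8 RPKM in winter, and troponin T (NP1608872), a muscle protein, 44.8 RPKM in spring and 77.1 RPKM in winter. Long-wavelength rhodopsin (TC16465), the visual pigment Lop1, was 2.58-fold lower in spring (1.91 to 3.53), and muscle-specific protein 20 (TC13857) 3.01-fold lower in spring (1.79 to 5.31). Other members went the other way. Of 25 muscle sequences past the minimum, 7 were above 0, 2 passed 2-fold lower (1 under median-of-ratios scaling) and 1 higher. The higher member was a twitchin match (NP9544802, log2 ratio 1.85). Of 9 photoreceptor sequences, 1 was above 0, a rhodopsin-like match (NP9547279) at 13.5 RPKM in spring and 9.81 RPKM in winter. Flightin, a flight muscle marker, had 0 reads in spring and 1 read in winter. The part of these tissues in the lower lists was not tested.

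Grouped by the process terms of the files instead of by name, 40 terms had at least 15 sequences. The highest medians were those of translation (0.23 over 52 sequences), cellular protein metabolic process (0.14 over 28) and cellular metabolic process (0.09 over 17). The lowest were metal ion transport (-0.44 over 30), locomotory behavior (-0.40 over 20), regulation of cellular process (-0.39 over 16) and transcription (-0.36 over 77). Over all 1611 sequences with a process term the median was -0.19. Among all sequences compared, 4.76% were at least 2-fold lower and 2.14% higher. Transcription had 8 of its 77 sequences at least 2-fold lower and 0 higher, and signal transduction 6 of 49 lower and 0 higher. Both counts include sequences of a potassium channel of subfamily H (3 sequences, lower by between 2.31-fold and 2.91-fold), so terms share members. The orthology entries with 15 or more sequences numbered 4, all below the median of all sequences, from -0.40 for broad, a transcription factor family, to -0.29 for KRAB domain zinc finger proteins.

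Of the described sequences past 2-fold, 88 higher and 61 lower ones were in a list and 69 higher and 88 lower ones in none. Those in none are shown by examples chosen after their values were seen. How many of them belong to any 1 pathway was not counted. The translocating chain-associated membrane protein (TC12718), part of the translocon, had 181 RPKM in spring and 66.04 RPKM in winter, 2.74-fold higher in spring (2.43 to 3.08). A signal peptide peptidase match named minor histocompatibility antigen H13 (TC15497), which cuts spent signal peptides, had 121 RPKM in spring and 47.7 RPKM in winter, 2.53-fold higher in spring (2.28 to 2.81). The astrocyte-derived neurotrophic factor homologue (TC16387), a protein of the stressed ER, was 2.72-fold higher in spring (1.95 to 3.82), and the stress-associated ER protein (TC14471) 2.29-fold higher in spring (1.96 to 2.69). The vesicle protein SEC22b (NP9553607) and the cargo receptor surfeit locus protein 4 (TC18111) were 2.52-fold and 2.55-fold higher. Mannose-1-phosphate guanyltransferase beta (TC16110), which makes the sugar donor for N-glycans, had 262 RPKM in spring and 114 RPKM in winter, 2.29-fold higher in spring (2.09 to 2.51). Polyadenylate-binding protein 1 (TC19440), which binds messenger RNA tails, had 1348 RPKM in the spring library and 668 RPKM in the winter library, 2.02-fold higher in spring (1.96 to 2.08).

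Lower in spring outside the lists were the synaptic vesicle protein VAT-1 match (TC13152) at 89.3 RPKM in spring and 269 RPKM in winter, 3.01-fold lower in spring (2.75 to 3.29), and a nuclear protein 1 match (TC12630), a stress-induced factor in mammals, at 91.3 RPKM in spring and 236 RPKM in winter, 2.59-fold lower in spring (2.26 to 2.98). A cAMP-responsive element-binding protein-like 2 match (TC19553) stood at 97.2 RPKM in spring and 273 RPKM in winter, 2.81-fold lower in spring (2.36 to 3.36). The protein hairy (TC23351), a transcriptional repressor, was 2.13-fold lower in spring (1.68 to 2.72), and tensin-3 (TC15354), a protein of cell adhesions, 2.02-fold lower in spring (1.90 to 2.14). Choline/ethanolamine kinase (TC18181), the first enzyme of phosphatidylcholine synthesis, was 2.22-fold lower in spring (1.96 to 2.51).

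Entries of 1 protein could be set against each other for 451 described proteins with 2 or more sequences past the minimum. Of these proteins, 31 had a sequence at least 2-fold higher, in 25 of them all sequences lay above the median of all, and in 10 all were at least 2-fold higher. A further 25 had a sequence at least 2-fold lower, in 20 of them all lay below the median, and in 6 all were at least 2-fold lower. No protein had sequences past 2-fold in both directions. Entries of 1 protein share bees and library, so they are not replicates.

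Sequences without a described protein held further large ratios. The lowest were BI514159, with no match, on 1 read in spring and 72 in winter, and TC21316, with 6.91 RPKM in spring and 82.1 RPKM in winter, 11.9-fold lower in spring (7.78 to 19.0). TC16822, matched to a hypothetical protein, had 0 reads in spring and 47 in winter, at least 13.4-fold lower when 3 spring reads are allowed. TC15691, an uncharacterized protein, was the most read of the 8 lowest, with 88.2 RPKM in spring and 527 RPKM in winter. Just inside the minimum of 10 RPKM lay a beta-1-syntrophin match (TC21913) at 7.69 RPKM in spring and 10.0066 RPKM in winter, and just outside it a Pax-6 match (NP9550363) at 7.63 RPKM in spring and 9.995 RPKM in winter.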

How the data were processed

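Messenger RNA was captured with oligo-dT beads from total RNA of pooled bees, fragmented, amplified by PCR and sequenced on an Illumina instrument, per the labels' protocols. The authors deposited 1 table per library with the count of uniquely mapped reads per sequence, the sequence length and the RPKM. Per the file headers, the tables also hold coverage, the fraction of each sequence covered by reads, a best protein match, an orthology entry and process terms. The aligner, counter and set of sequences behind them were not given in the sources used here. A read that maps to more than 1 sequence is not counted, so near-identical copies can lose reads, and strand is not stated.

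From these tables, the spring and winter libraries were joined by sequence name, with 0 reads where a sequence was missing in 1 of them. Sequences needed at least 10 RPKM in 1 of the 2 libraries. The log2 ratio was taken of spring over winter RPKM with a pseudocount of 1, which understates the change of low sequences. A call is a ratio past 2-fold and carries no p-value, since each group has 1 library. Folds are ratios of reads per library total with exact Clopper-Pearson 95% intervals. Against 0 reads a floor of 3 reads over the library gives a finite ratio, which is not the 95% bound. Symbols came from the RefSeq table of assembly Amel_HAv3.1, matched by protein accession for 3184 of 12038 sequences. Values were computed with scipy 1.17.1, pandas 2.3.3 and numpy 2.4.6 under Python 3.11.15 and drawn with matplotlib 3.10.9, and the ratio and interval code was tested on simulated data.

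The sequences named were the 15 highest and 15 lowest described ones with at least 20 reads outside the royal jelly and honey enzyme lists, 1 per protein. To these came up to 4 members of each of 55 lists with the largest ratios, the most abundant member of each list and the 10 most abundant described sequences of each library, of which a choice is printed. Other named sequences were picked after their values were seen. Members and lists were chosen with earlier results of these data known, and the lists were revised after their values were seen, so list counts and medians are descriptions. Lists were matched by words in the protein description and can hold several entries of 1 gene. Other pseudocounts, minimum levels, scalings, units and thresholds were tried.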

Additional observations from a re-analysis of the deposited data

How the results depend on the processing

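All values rest on 1 library a side, so nothing separates season from labelled age or from differences between pools, and thinly read sequences have wide intervals. No paired analysis was possible because each group has 1 library. Against 258 sequences higher, 573 lower and a median of -0.26, a pseudocount of 5 RPKM gave 291 lower. Without a minimum level 708 were higher and 1663 lower, and with a minimum of 50 RPKM 119 were higher and 155 lower. With the minimum applied after median-of-ratios scaling, 464 were higher and 283 lower, with a median of 0. Totals without royal jelly and the 10 most abundant sequences of each library gave 449 higher, 396 lower and a median of -0.0553. Reads summed per described protein match gave 114 higher and 110 lower, with a median of -0.1559. A 4-fold threshold left 61 higher and 49 lower. With a pseudocount of 0.1 RPKM 285 were higher and 666 lower, and with TPM 273 were higher and 626 lower. Among the 30 highest and lowest named sequences, all 226 values that these alternatives gave kept their direction and stayed at least 2-fold. Alternatives that gave no value for a sequence are not counted. The 30 were chosen by the size of this same ratio, and the 2 rescalings moved all ratios by only 0.26 and 0.21. This outcome was therefore nearly fixed in advance. Of 55 list medians, 15 changed sign under a scaling.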
